A study of Rattus norvegicus with 24 samples.

Results

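The genes described here are the nuclear-encoded subunits of the mitochondrial respiratory chain and ATP synthase, measured by RNA-seq in brain tissue of adult rats. They were taken by symbol: every identifier starting Ndufa, Ndufb, Ndufc, Ndufs, Ndufv, Uqcr or Atp5, with Sdha, Sdhb, Sdhc, Sdhd and Cycs added and with Ndufaf names and names ending -ps left out. This gave 91 genes of 37403 identifiers, 48 for complex I, 4 for complex II, 11 for complex III, 27 for complex V and cytochrome c. Of the 91, 21 bear names of copies of another gene of the set (such as Uqcrbl1), and 70 do not (39, 4, 8 and 18 for complexes I, II, III and V, and Cycs). Summaries of levels and fold changes below use the 70 genes unless stated.

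The comparison addresses whether morphine taken by fathers before breeding goes with altered gene expression in reward regions of their offspring. MOR-sired rats were F1 offspring of fathers that self-administered morphine over 60 days, and SAL-sired rats were offspring of fathers that self-administered saline over the same time. All were labelled male, were at least 60 days old and gave bilateral punches of the ventral tegmental area (VTA) or the nucleus accumbens (NAC). There were 5 MOR-sired and 5 SAL-sired VTA libraries, and 7 MOR-sired and 7 SAL-sired NAC libraries. The labels name no animal, litter, strain or sire, so a p-value reflects only how these libraries scatter, and littermates could not be accounted for.

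The respiratory chain sits in the inner mitochondrial membrane. Complex I passes electrons from NADH, and complex II from succinate, to ubiquinone, complex III hands them to cytochrome c, complexes I and III pump protons, and complex V (ATP synthase) uses the proton gradient to make ATP. Complex II is built of nuclear-encoded subunits alone, while complexes I, III and V join nuclear-encoded subunits to a few encoded by mitochondrial DNA, and neurons depend on this machinery for the ATP that restores their ion gradients.

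Several libraries stood apart before any comparison. In VTA, 4 libraries did not match the male label, namely replicates 3, 4 and 5 of the MOR-sired group and replicate 5 of the SAL-sired group. The 4 had 78.9 to 108 CPM of Xist, against 0.007 to 0.253 CPM in the other 6, and at most 0.072 CPM of the Y-linked Ddx3y, against 40.3 to 57.5 CPM. Small RNA classes took 16.9% of the counts in MOR-sired VTA 2 and 9.22% in MOR-sired VTA 4, against 1.85% to 3.37% in the other VTA libraries and 1.43% to 2.52% in NAC libraries. The grouping also admitted rRNA, antisense RNA and other noncoding classes, and its shares are of the scaled counts described below, not of reads. The dopamine neuron marker Th lay between 1293 and 2881 CPM in VTA and between 0.686 and 1.87 CPM in NAC. Summed serotonin neuron markers (4 genes) ran from 104 to 272 CPM in MOR-sired VTA and from 6.5 to 97.9 CPM in SAL-sired VTA. The VTA sire groups thus did not overlap in this sum, but by a narrow margin. None of the 4 genes was called for the sire effect in VTA (edgeR, smallest adjusted p = 0.793). The part of these markers in the sire comparison was not tested. Striatal markers varied widely within NAC, where Drd1 ran from 18.6 to 246 CPM in MOR-sired and from 58.6 to 172 CPM in SAL-sired libraries. Summed oligodendrocyte markers (9 genes) ran from 24897 to 36336 CPM in VTA, against 8628 to 12329 CPM in NAC. In such bulk punches, fewer cells of a type and less RNA per cell cannot be told apart. Region, deposited table and library number series also coincide and cannot be told apart.

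Together the 91 genes took 2.70% ± 0.16 of the counts in VTA (SD, n = 10) and 2.94% ± 0.10 in NAC (SD, n = 14). Values are counts per 1000000 (CPM) of estimated counts that the authors scaled from TPM, so that levels are per transcript length and can be set side by side between genes. Median mean levels of the 70 genes were 321 CPM in VTA and 340 CPM in NAC, and 67 and 68 of them averaged at least 100 CPM. Complex V genes had the highest median level, 547 CPM in VTA and 609.5 CPM in NAC, against 293 and 297 CPM for complex I, 270.3 and 233 CPM for complex II, and 281 and 295 CPM for complex III.

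The most abundant transcript in both regions was Atp5f1b, the catalytic beta subunit of ATP synthase, at 1440 ± 119 CPM in VTA and 1656 ± 53.9 CPM in NAC. In VTA it was followed by the membrane subunits Atp5mf (1107 CPM) and Atp5me (987 CPM), the inhibitor Atp5if1 (836 CPM), which stops the enzyme from running backwards, and the alpha subunit Atp5f1a (812 CPM). In NAC the order was Uqcr11 (1310 CPM), a small subunit of complex III, then Atp5me (1185 CPM), Atp5mf (1053 CPM) and Atp5if1 (942 CPM). Atp5mf and Atp5me, which changed places, had overlapping ranges of mean ± SD within each region (1107 ± 103 and 987 ± 49.4 CPM in VTA, 1053 ± 82.8 and 1185 ± 125 CPM in NAC). Within single libraries the order was nearly uniform. Atp5mf was above Atp5me in every VTA library and below it in every NAC library but SAL-sired NAC 1 (1071 against 1051 CPM).

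At the low end stood Ndufa4l2, a relative of Ndufa4 known as a hypoxia-induced gene, with 8.74 ± 0.85 CPM in VTA and 13.1 ± 3.05 CPM in NAC. Ndufa4 itself, named for complex I but now counted as a subunit of complex IV, had 537 ± 29.7 CPM in VTA and 649.7 ± 56.3 CPM in NAC. In all counts, medians and sums by complex, Ndufa4 and Ndufa4l2 were kept with complex I by their symbols. Ndufab1, the mitochondrial acyl carrier protein, averaged 48.4 and 50.1 CPM in VTA and NAC, and Uqcrq, a small subunit of complex III, 90.4 and 111 CPM. Atp5mg (103 CPM) and Ndufs4 (129 CPM) were next in VTA, and Ndufc1 (118 CPM) and Ndufs4 (126 CPM) in NAC. Subunits that meet in 1 complex therefore had transcript levels far apart, as the plot of mean levels shows.

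**Figure D1:**
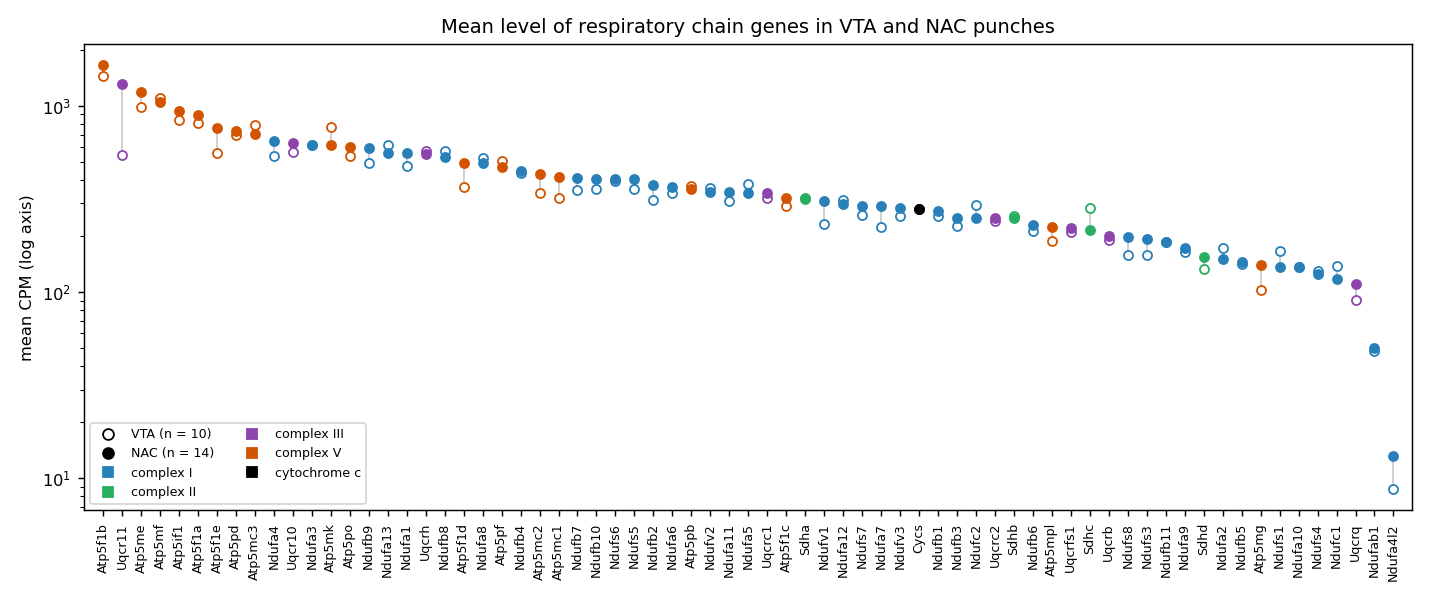
Mean CPM (log axis) of 69 of the 70 genes in VTA (open circles, n = 10 libraries) and NAC (filled circles, n = 14), ordered by the NAC level and coloured by complex. Atp5f1b leads in both regions and Ndufa4l2 is lowest, and the widest gap between the regions is that of Uqcr11, 544 CPM in VTA against 1310 CPM in NAC.

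Of the 21 genes named as copies, 19 averaged under 1 CPM in VTA and 19 in NAC, and Uqcrbl2 had no count in any library. The exceptions were Atp5mkl1, with 238 ± 19.6 CPM in VTA and 237 ± 38.6 CPM in NAC, and Ndufa10l1, with 33.3 ± 7.79 CPM in VTA and 25.1 ± 13.5 CPM in NAC. Copies can share reads with the gene they are named for, so levels of both are uncertain, and 74 of the 91 genes passed the filter on low counts in NAC, 75 in VTA and 76 over all 24 libraries.

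Within a group these transcripts varied little. The median coefficient of variation of the 70 genes was 7.95% in MOR-sired VTA, 5.63% in SAL-sired VTA, 6.61% in MOR-sired NAC and 5.15% in SAL-sired NAC. Other genes between 11.3 and 1566 CPM, the range of the 70 genes, had medians of 10.9%, 7.95%, 10.5% and 7.95% in the same order. They were not matched in level within that range, where most of the 70 genes averaged at least 100 CPM. The medians therefore do not compare genes of like level. No test was made of these differences, since genes of a library are not independent.

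Promoters are shown for 5 genes from sets whose members did not all go the same way in the comparison of regions. These are the 3 genes for the c subunit, whose precursors yield the same mature ring protein, and the pair that anchors complex II in the membrane. The stretches are the 200 bases before the RefSeq start of each gene in assembly GRCr8, read 5′ to 3′ on the gene's strand, which is the minus strand for each. Capitals mark matches on either strand to the ETS motif CCGGAAG (Sdhd, in its reverse complement) or to the palindromic NRF1 motif, whose letters are the capitals of the Atp5mc2 stretch.
Atp5mc1 (chr10:81523346-81523545): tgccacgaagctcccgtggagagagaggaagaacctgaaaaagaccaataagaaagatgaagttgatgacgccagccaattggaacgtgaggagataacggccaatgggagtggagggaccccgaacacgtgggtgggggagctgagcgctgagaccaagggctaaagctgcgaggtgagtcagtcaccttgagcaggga
Atp5mc2 (chr7:135678219-135678418): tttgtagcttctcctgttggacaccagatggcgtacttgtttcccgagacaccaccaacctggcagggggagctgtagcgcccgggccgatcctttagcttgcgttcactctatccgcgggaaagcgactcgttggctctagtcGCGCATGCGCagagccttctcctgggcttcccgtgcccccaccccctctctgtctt
Atp5mc3 (chr3:79220665-79220864): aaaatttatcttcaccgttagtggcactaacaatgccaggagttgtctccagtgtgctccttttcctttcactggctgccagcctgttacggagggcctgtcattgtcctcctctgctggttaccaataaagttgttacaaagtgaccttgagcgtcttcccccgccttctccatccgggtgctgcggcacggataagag
Sdhc (chr13:86098026-86098225): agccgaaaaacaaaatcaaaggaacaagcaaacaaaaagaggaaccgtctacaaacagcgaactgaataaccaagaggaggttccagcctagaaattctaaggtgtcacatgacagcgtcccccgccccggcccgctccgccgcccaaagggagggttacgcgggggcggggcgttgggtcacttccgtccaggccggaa
Sdhd (chr8:59850642-59850841): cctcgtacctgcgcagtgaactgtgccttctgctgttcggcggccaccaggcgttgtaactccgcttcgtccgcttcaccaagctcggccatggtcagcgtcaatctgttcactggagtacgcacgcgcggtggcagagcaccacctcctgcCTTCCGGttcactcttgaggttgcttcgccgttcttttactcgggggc
Within these stretches Atp5mc2 held the NRF1 motif, 56 to 47 bases before the start, and Sdhd the ETS motif, 48 to 42 bases before it.

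Promoter sequences were at hand for 64 of the 70 genes, from 250 bases before to 50 after the start. Of these, 4 (6.25%) held the NRF1 motif, 17 (26.6%) held CCGGAAG and 15 (23.4%) held AAGATGGC, the YY1 motif, on either strand. Among all 27457 promoters of the same length the shares were 0.932%, 9.22% and 3.44%, and among 18999 promoters of protein-coding genes 1.13%, 11.2% and 3.92%. The NRF1 motif stood in the promoters of Atp5mc2, Atp5me, Atp5po and Ndufa11. With the first base of the gene counted as 0, the YY1 matches lay after the start, as in Sdhc (bases 3 to 10) and Ndufs7 (bases 4 to 11), or across it, as in Ndufa4l2 and Uqcrc1 (bases -1 to 6), except those of Atp5me and Atp5pf, which lay upstream. Median GC content was 57.2% in the 64 promoters and 52.3% in all promoters, and a match is a description of the letters, not of a bound site.

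In VTA, no respiratory chain gene differed between MOR-sired and SAL-sired libraries past the threshold of an adjusted p under 0.05. edgeR's quasi-likelihood test with Benjamini-Hochberg adjustment called 0 of the 75 tested genes of the set, against a background of 0% of 19923 tested genes. At an unadjusted p under 0.05 it listed 1 gene of the set, against 5.31% of all tested genes. DESeq2 called 0 genes of the set and listed 2, while it called 0.471% of all genes it tested, and limma-voom called 0 and listed 1, while it called 0% of all. The median log2 fold change of the 70 genes was -0.03, with 46 lower and 24 higher in MOR-sired libraries (52.6% and 47.4% of all tested genes). For 67 of the 70 the 95% interval lay within a 1.25-fold change either way and for all 70 within 1.5-fold, so the intervals bound the difference rather than show equality.

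The gene with the smallest p in VTA was Uqcrq, which sits near the ubiquinone pocket of complex III. Its level was 94.2, 80.3, 97.9, 93.1 and 98.2 CPM in MOR-sired VTA 1 to 5, against 82.7, 75.6, 91.3, 94.3 and 96.4 CPM in SAL-sired VTA 1 to 5. The groups overlapped, and the lowest library of each was replicate 2. Its log2 fold change was 0.16 (SE 0.07, unadjusted p = 0.0401, adjusted p = 0.928, edgeR).

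Ndufc1, an accessory subunit of the membrane arm of complex I, ran the other way, with 144, 130.2, 123, 107 and 123 CPM in MOR-sired VTA 1 to 5, against 160.2, 151, 159, 147 and 139.5 CPM in SAL-sired VTA 1 to 5. Only MOR-sired VTA 1 reached into the SAL-sired range. The log2 fold change was -0.18 (SE 0.09, adjusted p = 0.946, edgeR), and it was -0.01 without the 4 libraries with Xist. Atp5mc3, the most abundant c-subunit gene, had 844, 728, 780.2, 664 and 676 CPM in MOR-sired VTA 1 to 5, against 817, 823, 895, 867 and 846 CPM in SAL-sired VTA 1 to 5. Again MOR-sired VTA 1 alone lay within the SAL-sired range, and the fitted difference was -0.11 (SE 0.08, adjusted p = 0.974).

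Plain CPM put the complexes lower in MOR-sired VTA than the fitted folds did. Complex V genes summed to 10777 ± 598 CPM in MOR-sired and 11756 ± 437 CPM in SAL-sired VTA (SD, n = 5 each), and complex I genes to 11329 ± 569 and 12097 ± 429 CPM. MOR-sired VTA 2, 4 and 5 were the 3 lowest MOR-sired libraries for each. MOR-sired VTA 2 and 4 held the most small RNA, while MOR-sired VTA 5 held 3.02%. As CPM of the protein-coding counts alone, complex V summed to 11803 ± 756 in MOR-sired and 12246 ± 486 in SAL-sired VTA, and complex I to 12400 ± 553 and 12600 ± 467. On that scale MOR-sired VTA 5 was the lowest and MOR-sired VTA 2 the highest MOR-sired library for both complexes. The groups overlapped on both scales. With library totals in place of TMM factors, 12 genes of the set passed an unadjusted p under 0.05, none passed adjustment, and the median log2 fold change was -0.12, beside -0.09 over all tested genes.

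**Figure D2:**
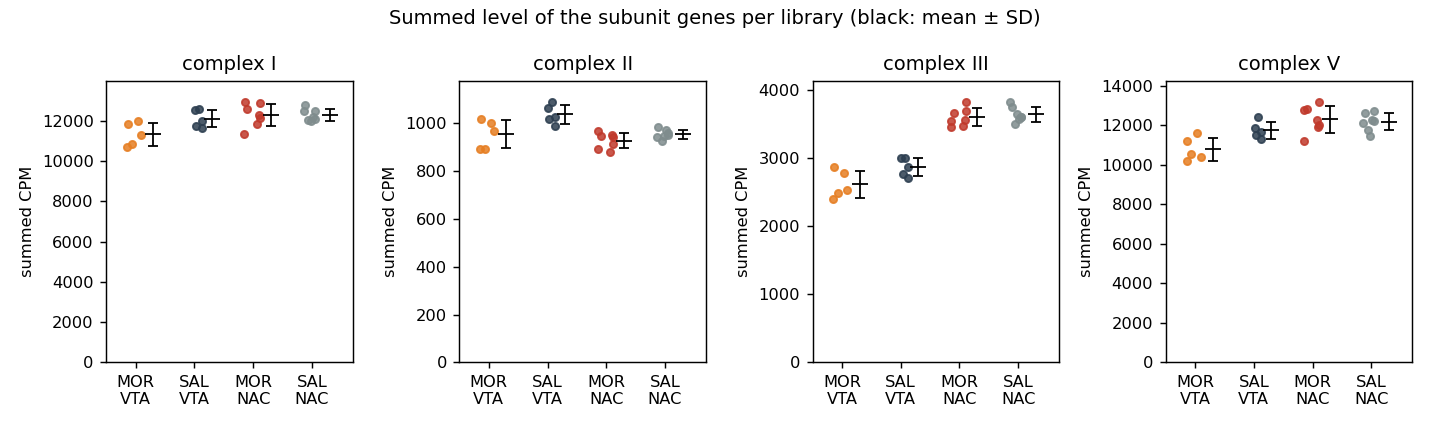
Summed CPM of the genes of complexes I, II, III and V in each library, with MOR-sired and SAL-sired VTA (5 libraries each) left of MOR-sired and SAL-sired NAC (7 each) and black marks for mean ± SD. Complex III is the only 1 of the 4 sums whose VTA libraries (2396 to 2998 CPM) all lie below the NAC libraries (3447 to 3819 CPM).

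Without the 4 VTA libraries with Xist, which leaves 2 MOR-sired and 4 SAL-sired libraries, edgeR again called 0 genes of the set and listed 4 at an unadjusted p under 0.05, and the median log2 fold change was 0.05. Without MOR-sired VTA 2 and 4 it called 0, listed 2 and gave a median of -0.04. Ndufa1, which lies on the X chromosome, had 380 to 504 CPM in the 4 libraries with Xist, against 465 to 518 CPM in the other 6 VTA libraries. Its fitted sire difference in VTA was -0.09 (SE 0.10), and the part of these libraries in it was not tested.

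In NAC, likewise, none of the 74 tested genes of the set was called between MOR-sired and SAL-sired libraries, against a background of 0% of 18220 tested genes (edgeR, adjusted p under 0.05). At an unadjusted p under 0.05 there were 2 genes of the set, against 6.18% of all tested genes. DESeq2 and limma-voom each called 0 genes of the set and listed 5, while they called 0.328% and 0.285% of all genes they tested. The median log2 fold change of the 70 genes was -0.01, with 42 lower and 28 higher (50.5% and 49.5% of all tested genes), and the median SE was 0.05. For 65 genes the 95% interval lay within 1.25-fold, and for all 70 within 1.5-fold.

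The smallest p in NAC was that of Sdha, the flavoprotein of complex II that oxidises succinate. Its lowest, median and highest levels were 285, 308 and 334 CPM in 7 MOR-sired libraries and 319, 329 and 336 CPM in 7 SAL-sired libraries. The groups overlapped, with wider spread in MOR-sired NAC. The log2 fold change was -0.11 (SE 0.04, unadjusted p = 0.0172, adjusted p = 0.672, edgeR).

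The second was Ndufb10, an accessory subunit of the membrane arm of complex I, with lowest, median and highest levels of 357, 401 and 417 CPM in MOR-sired and 397, 419 and 440.0 CPM in SAL-sired NAC. The log2 fold change was -0.10 (SE 0.05, unadjusted p = 0.0419, adjusted p = 0.777). The largest fitted change among the 70 genes was that of Atp5mg, a membrane subunit of ATP synthase, at 0.25 (SE 0.12, adjusted p = 0.784). Its levels ran from 118 to 197 CPM with a median of 144 in MOR-sired NAC and from 111 to 158 CPM with a median of 124 in SAL-sired NAC, so the ranges overlapped.

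Genes of the catalytic core did not pass the test in either region. The subunits that bind NADH and carry its electrons had sire differences of -0.04 (Ndufv1), 0.02 (Ndufv2) and -0.03 (Ndufs1) in VTA, and of -0.02, 0.01 and -0.08 in NAC. In the quinone-binding part, Ndufs7 and Ndufs8 had differences of 0.00 and 0.02 in VTA and of -0.06 and -0.09 in NAC. Uqcrc1 and Uqcrc2, the core proteins of complex III, and Uqcrfs1, its Rieske iron-sulfur protein, had -0.06, -0.04 and -0.06 in VTA, and -0.09, -0.01 and -0.07 in NAC. Cycs, the soluble electron carrier, had -0.06 in VTA and 0.01 in NAC, each with SE 0.06, and the catalytic pair Atp5f1a and Atp5f1b had -0.06 each in VTA, and -0.08 and -0.04 in NAC.

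**Figure D3:**
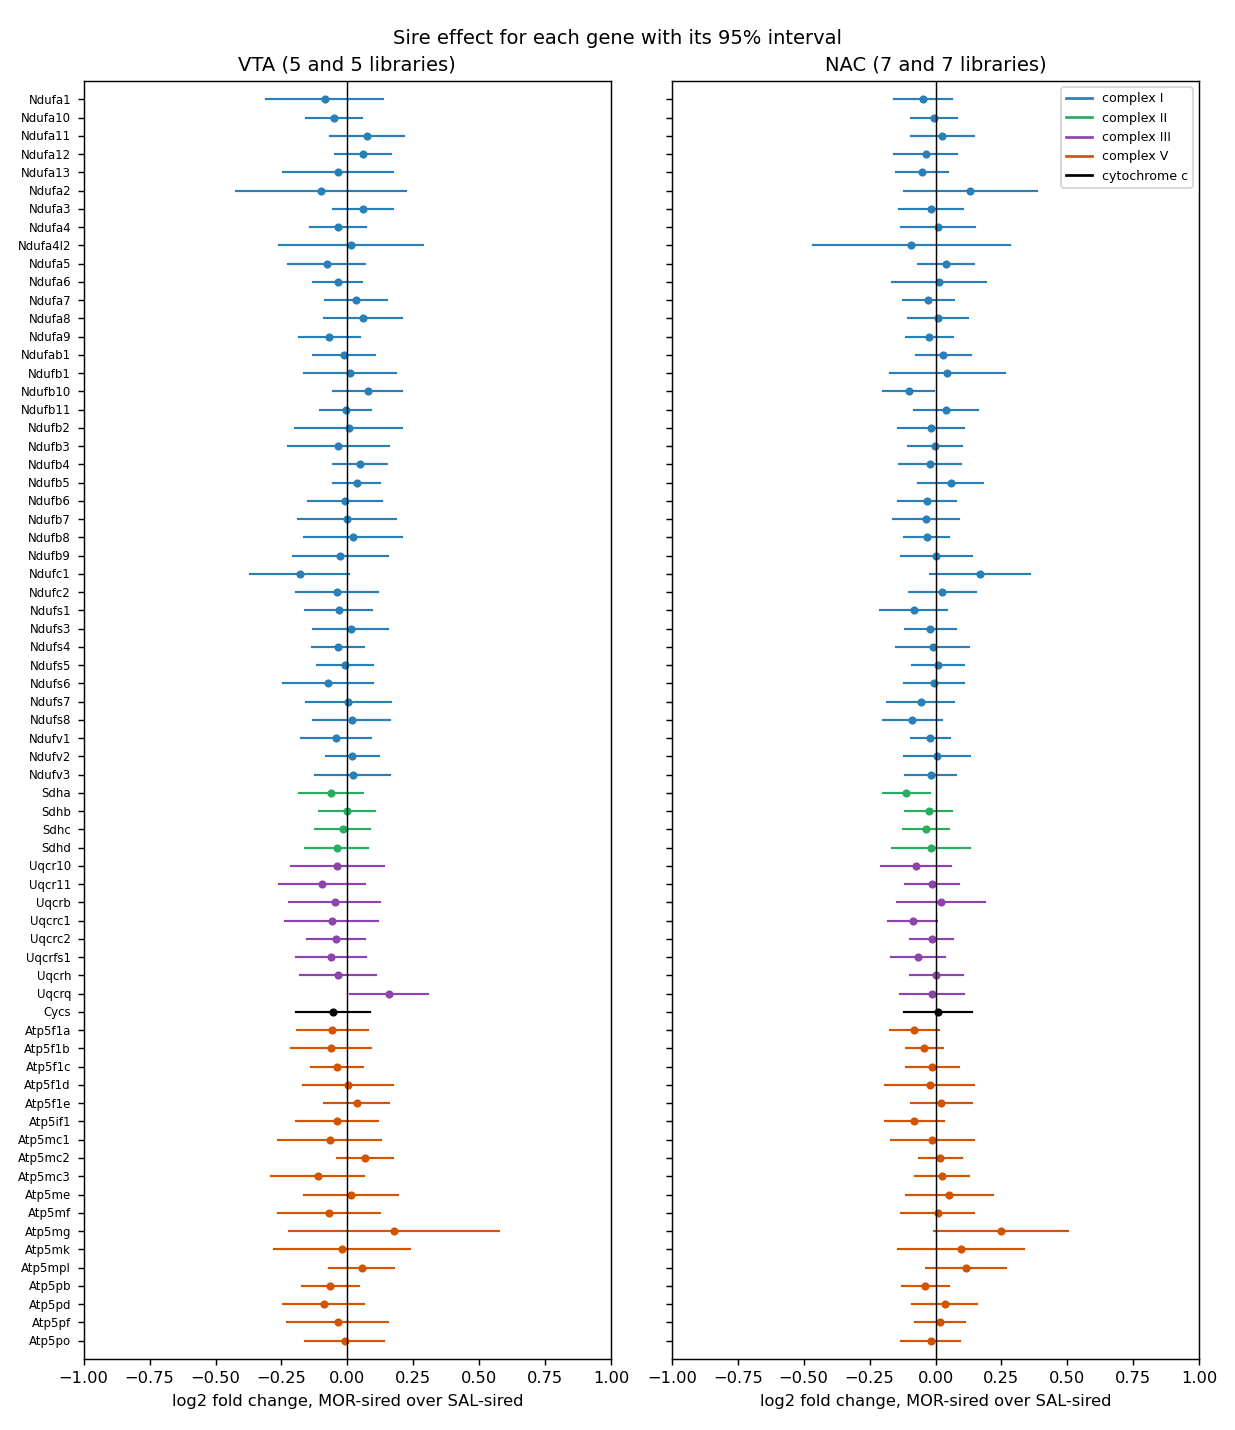
Log2 fold change of MOR-sired over SAL-sired libraries for 69 of the 70 genes, VTA on the left (5 and 5 libraries) and NAC on the right (7 and 7), with 95% intervals from edgeR and colours by complex. Estimates lie close to 0 in both panels, from -0.18 (Ndufc1) to 0.18 (Atp5mg) in VTA and from -0.11 (Sdha) to 0.25 (Atp5mg) in NAC.

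The difference of the sire effect between the regions was tested over all 24 libraries as the VTA effect minus the NAC effect. edgeR called 0 of 76 genes of the set, against 0% of 20603 tested genes, and listed 2 at an unadjusted p under 0.05, against 4.78% of all. DESeq2 and limma-voom called 0 genes of the set and listed 2 and 4, while they called 0.682% and 0% of all genes they tested. The 2 genes were Ndufc1, at -0.34 (SE 0.13, unadjusted p = 0.0164, adjusted p = 0.95), and Ndufb10, at 0.19 (SE 0.07, unadjusted p = 0.0164, adjusted p = 0.95). Ndufc1 in NAC ran from 106 to 148 CPM with a median of 128 in MOR-sired and from 96.9 to 128 CPM with a median of 109.8 in SAL-sired libraries. Its fitted effects thus had opposite signs, -0.18 in VTA and 0.17 in NAC, neither past the threshold. Without the 4 libraries with Xist the difference for Ndufc1 was -0.17 (adjusted p = 0.958).

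In the edgeR test between the regions, a smaller share of the set was called than of all tested genes. Most of the called genes of the set were lower in VTA. Among MOR-sired libraries edgeR called 34 of 76 genes of the set lower and 5 higher in VTA than in NAC, against backgrounds of 30.4% lower and 27.8% higher (58.2% either way) among 20603 tested genes. Among SAL-sired libraries it called 33 lower and 8 higher, against 29.7% and 29% (58.7% either way). At an unadjusted p under 0.05 there were 43 genes of the set among MOR-sired and 44 among SAL-sired libraries, against 61.9% and 62.6% of all tested genes. The median log2 fold change of the 70 genes was -0.13 in MOR-sired and -0.12 in SAL-sired libraries, beside 0.00 and 0.03 over all tested genes. The 2 contrasts share no library: 32 of the 76 genes were lower in both and 4 were higher in both, against 26.7% and 23.9% of all 20603 tested genes. None was called in opposite directions and 8 were called in only 1 contrast, against 0.0437% and 15.6% of all tested genes.

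The count of calls depended on libraries and scaling. Without the 4 VTA libraries with Xist, the MOR-sired contrast rests on 2 VTA libraries, which are assumed to vary like the other groups, and it called 15 of 83 tested genes of the set lower and 9 higher, against 23.6% and 19.7% of all tested genes. The share of the set that was lower thus did not exceed the background there. In the same fit the SAL-sired contrast called 35 lower and 9 higher, against 27.4% and 25.5%. With library totals as the only scaling, the SAL-sired contrast called 21 lower and 17 higher, against 24.3% and 33.8% of all tested genes, and the MOR-sired contrast 37 and 4, against 30.6% and 26.1%. VTA and NAC punches also differed in cell markers. Markers of oligodendrocytes (9 of 9 genes), astrocytes (7 of 9) and dopamine neurons (7 of 8) were called higher in VTA in both sire groups, and those of striatal neurons (9 of 10) and cortical glutamatergic neurons (6 of 6) lower. Of the other astrocyte markers, 2 were called lower in MOR-sired and 1 in SAL-sired libraries. General neuron markers (10 genes) had 2 called higher and 3 lower in each sire group. Summed cortical markers ran from 139 to 1639 CPM within NAC and from 5.71 to 139 CPM in VTA. The part of these cell types in the differences was not tested.

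By complex, 12 of 20 tested complex V genes, 16 of 42 complex I genes, 3 of 9 complex III genes and 1 of 4 complex II genes were lower in VTA in both sire groups, against the 26.7% of all tested genes given above. Complexes I, II and III lay nearer to that share than complex V. Those higher in both were 3 genes of complex I and 1 of complex II. Complex I in these counts holds Ndufa4 and Ndufa4l2, grouped by symbol.

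**Figure D4:**
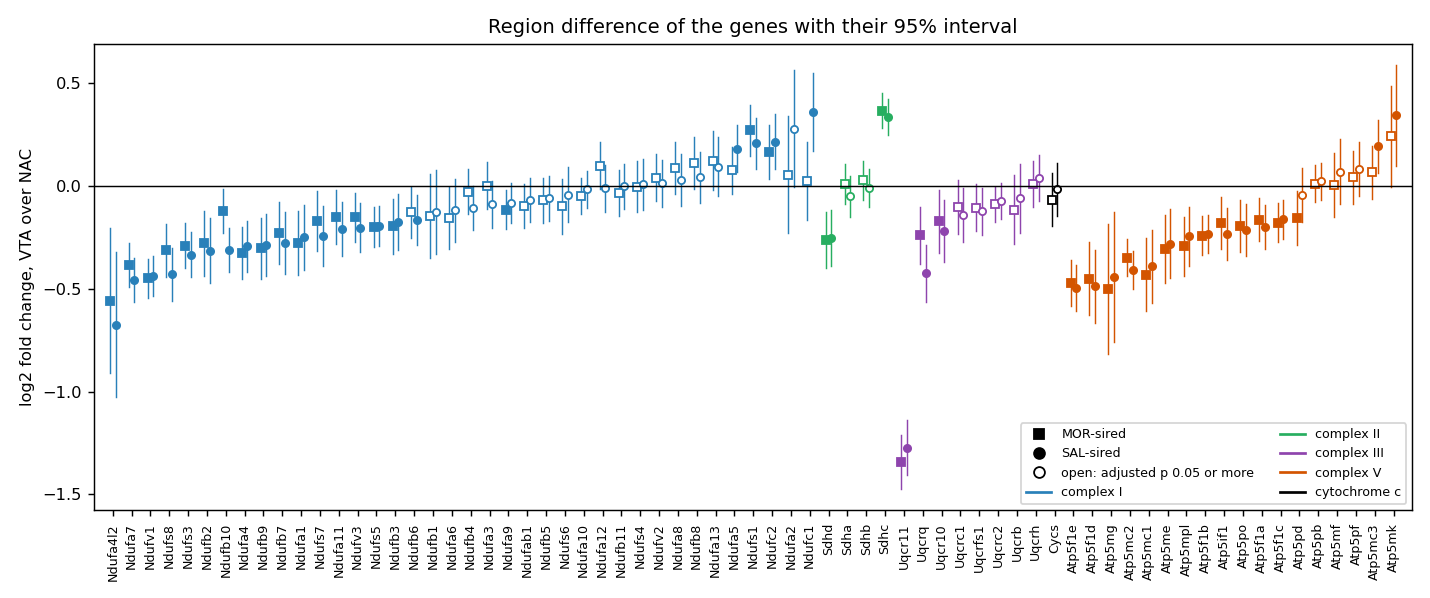
Log2 fold change of VTA over NAC for 69 of the 70 genes in MOR-sired (squares) and SAL-sired (circles) libraries with 95% intervals from edgeR, grouped by complex, with filled symbols for adjusted p under 0.05. Uqcr11 stands apart at -1.34 and -1.27, while Sdhc lies above 0 (0.37 and 0.33) and Sdhd below it (-0.26 and -0.25).

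The largest difference of the 70 genes was in complex III. Uqcr11 had 540.3, 464, 582, 482 and 478 CPM in MOR-sired VTA 1 to 5 and 514, 558, 602, 625.5 and 590.0 CPM in SAL-sired VTA 1 to 5. In NAC its lowest, median and highest levels were 1253, 1267 and 1434 CPM in MOR-sired and 1250.4, 1304 and 1393 CPM in SAL-sired libraries. Every VTA library lay far below every NAC library. The log2 fold change was -1.34 in MOR-sired (SE 0.06, adjusted p = 4.64e-14) and -1.27 in SAL-sired libraries (SE 0.06, adjusted p = 1.21e-13, edgeR). It was -1.32 and -1.30 without the 4 libraries with Xist, and -1.36 and -1.18 with library totals.

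Uqcr11 made up 19.8% ± 0.75 of the summed CPM of complex III genes in VTA (18.7% to 20.9%) and 36.2% ± 0.93 in NAC (34.9% to 38.2%). The other complex III genes together had 2196 ± 157 CPM in VTA and 2306 ± 77.6 CPM in NAC, with overlapping libraries. Uqcrq was also lower in VTA, by -0.24 in MOR-sired (adjusted p = 0.00334) and -0.43 in SAL-sired libraries (adjusted p = 8.87e-06). Uqcr10, another small subunit, was at -0.17 (adjusted p = 0.046) and -0.22 (adjusted p = 0.0127), and its MOR-sired call was lost under 15 alternatives. Its SAL-sired call was lost with library totals (adjusted p = 0.092). The core proteins Uqcrc1 and Uqcrc2 and the Rieske protein Uqcrfs1 were between -0.14 and -0.07 and not called in either sire group, but Uqcrfs1 and Uqcrc1 were called in SAL-sired libraries under 7 and 3 alternatives and Uqcrc2 in MOR-sired libraries under 2.

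Complex II had its membrane anchors on opposite sides. Sdhc, which with Sdhd holds the heme and the quinone site, had 294, 252, 284, 260.0 and 271 CPM in MOR-sired VTA 1 to 5 and 279, 292, 315, 288 and 289.8 CPM in SAL-sired VTA 1 to 5. In NAC its lowest, median and highest levels were 202, 213 and 227 CPM in MOR-sired and 201, 220.1 and 224 CPM in SAL-sired libraries. No VTA library overlapped NAC, and the log2 fold change was 0.37 in MOR-sired (SE 0.04, adjusted p = 8.22e-08) and 0.33 in SAL-sired libraries (SE 0.04, adjusted p = 3.3e-07).

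Sdhd had 137, 121, 130.2, 116 and 127 CPM in MOR-sired VTA 1 to 5 and 131, 144, 151, 135 and 132 CPM in SAL-sired VTA 1 to 5. In NAC its lowest, median and highest levels were 134, 146 and 186 CPM in MOR-sired and 137, 156 and 172 CPM in SAL-sired libraries, so the regions overlapped. Its log2 fold change was -0.26 (SE 0.07, adjusted p = 0.00154) and -0.25 (SE 0.07, adjusted p = 0.00219), and -0.18 in MOR-sired libraries without those with Xist (adjusted p = 0.114). With library totals the SAL-sired difference was -0.16 (adjusted p = 0.0621).

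The ratio of Sdhc to Sdhd was 2.14 ± 0.06 in VTA (2.03 to 2.24) and 1.41 ± 0.12 in NAC (1.18 to 1.63), with no overlap and no dependence on the scaling between libraries. The catalytic subunits were not called. Sdha averaged 322 and 318 CPM and Sdhb, the iron-sulfur subunit, 258 and 250.2 CPM in VTA and NAC, with log2 fold changes between -0.05 and 0.03.

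In complex V, all 5 subunits of the catalytic F1 head were lower in VTA in both sire groups. Atp5f1a was at -0.16 in MOR-sired and -0.20 in SAL-sired libraries, Atp5f1b at -0.24 in each, and Atp5f1c, the rotating gamma subunit, at -0.18 and -0.16. The small subunits differed more, Atp5f1d by -0.45 and -0.49 and Atp5f1e by -0.47 and -0.50 (adjusted p between 5.8e-08 and 9.96e-05 for these 2 genes). Atp5f1a lost its MOR-sired call with no filter on low counts, without the Xist libraries and without MOR-sired VTA 2 and 4, and its SAL-sired call with library totals.

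Atp5f1e, the epsilon subunit, had 553, 527, 565, 537 and 559 CPM in MOR-sired VTA 1 to 5 and 537, 547, 619, 586 and 557 CPM in SAL-sired VTA 1 to 5. In NAC its lowest, median and highest levels were 684, 762 and 842 CPM in MOR-sired and 708, 752 and 796 CPM in SAL-sired libraries. The VTA libraries all lay below the NAC libraries. Atp5if1, the inhibitor, was at -0.18 (adjusted p = 0.0143) and -0.23 (adjusted p = 0.00218), the MOR-sired call being lost under 5 alternatives, among them leaving out the Xist libraries (adjusted p = 0.179). In the peripheral stalk, Atp5po was called lower in both and Atp5pd in MOR-sired libraries alone (-0.16, and -0.04 in SAL-sired libraries), while Atp5pb and Atp5pf were called in neither.

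Of the 3 c-subunit genes, Atp5mc1 and Atp5mc2 were lower in VTA in both sire groups and Atp5mc3 was not. Atp5mc1 had 307, 279, 366, 266 and 303 CPM in MOR-sired VTA 1 to 5 and 303, 303, 349, 369 and 365 CPM in SAL-sired VTA 1 to 5. In NAC its lowest, median and highest levels were 323, 431 and 475 CPM in MOR-sired and 381, 419 and 430.1 CPM in SAL-sired libraries. The regions overlapped through MOR-sired NAC, and the log2 fold change was -0.43 (SE 0.09, adjusted p = 0.00015) and -0.39 (SE 0.09, adjusted p = 0.000439).

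Atp5mc2 had 359.9, 288, 334, 329 and 374 CPM in MOR-sired VTA 1 to 5 and 311, 344, 339, 355 and 354 CPM in SAL-sired VTA 1 to 5, against 416 to 459.7 CPM in MOR-sired NAC and 406 to 452 CPM in SAL-sired NAC, with medians of 433 and 417. The regions did not overlap, at -0.35 (adjusted p = 3.79e-07) and -0.41 (adjusted p = 3.52e-08). Atp5mc3, whose VTA levels stand above, ran from 658 to 792 CPM with a median of 724 in MOR-sired NAC and from 641 to 761 CPM with a median of 692 in SAL-sired NAC. It was at 0.07 in MOR-sired (SE 0.06, adjusted p = 0.383) and 0.19 in SAL-sired libraries (SE 0.06, adjusted p = 0.0107), and without the Xist libraries at 0.20 (adjusted p = 0.0164) and 0.17 (adjusted p = 0.00796).

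Atp5mc3 gave 54.6% ± 2.24 of the summed CPM of the 3 genes in VTA (49.96% to 57.1%) and 45.6% ± 1.37 in NAC (43.8% to 47.5%), so the shares did not overlap. The sum itself was 1454 ± 118 CPM in VTA and 1554 ± 84.1 CPM in NAC, with overlapping libraries. Of the promoters of these 3 genes printed above, that of Atp5mc2 alone held the NRF1 motif, and no match in a window says nothing of binding. A link between motifs and levels was not tested.

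**Figure D5:**
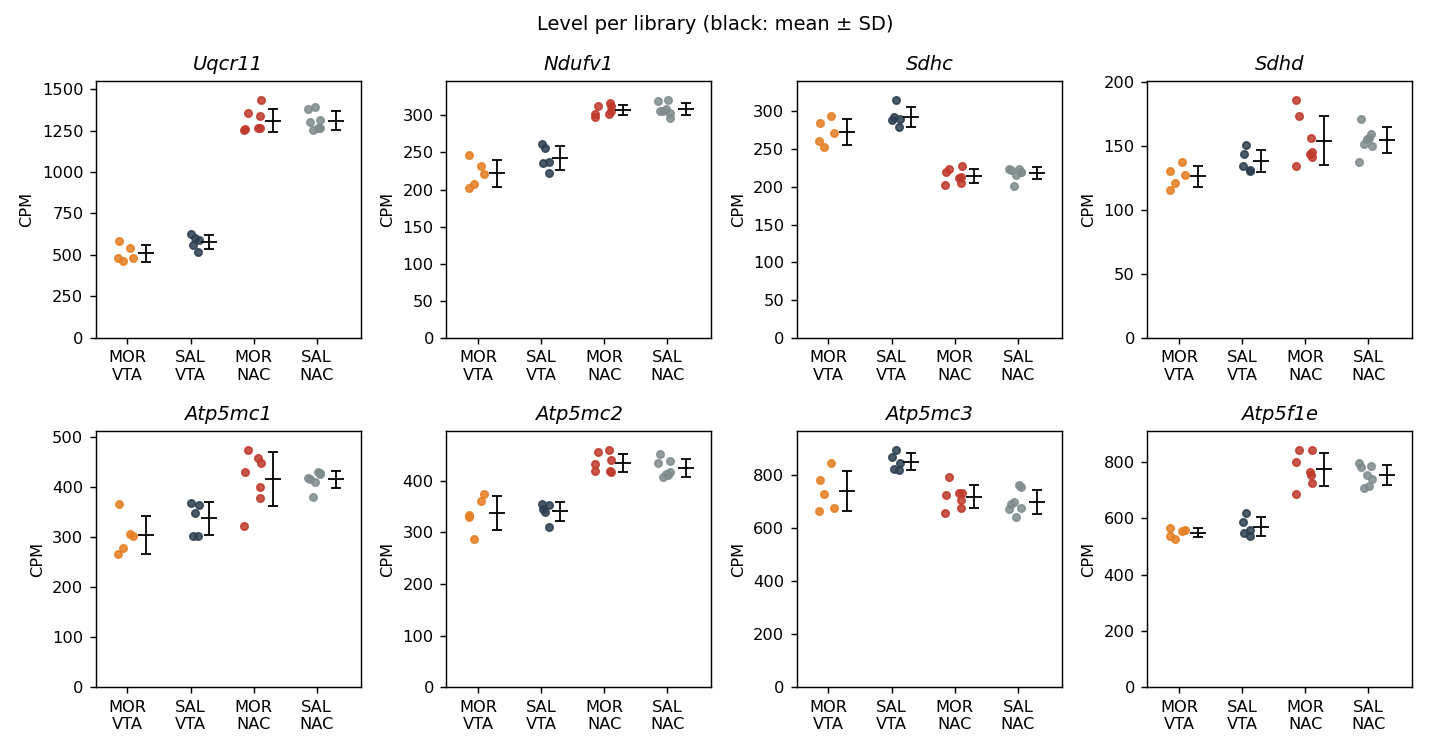
CPM per library of Uqcr11, Ndufv1, Sdhc, Sdhd, the 3 c-subunit genes and Atp5f1e, with MOR-sired and SAL-sired VTA left of MOR-sired and SAL-sired NAC and black marks for mean ± SD. Uqcr11, Ndufv1, Atp5mc2 and Atp5f1e lie lower in every VTA library than in any NAC library, and Sdhc lies higher in every VTA library.

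In complex I, genes of the catalytic arm went both ways. Ndufv1, which binds NADH, had 232, 207, 246, 202 and 221 CPM in MOR-sired VTA 1 to 5 and 222, 236, 255, 261 and 238 CPM in SAL-sired VTA 1 to 5. In NAC its lowest, median and highest levels were 298, 306 and 317 CPM in MOR-sired and 296, 307 and 321 CPM in SAL-sired libraries. The regions did not overlap, at -0.45 (SE 0.05, adjusted p = 2.18e-08) and -0.44 (SE 0.05, adjusted p = 3.3e-08). Its partner Ndufv2, an iron-sulfur subunit, was at 0.04 and 0.01 and not called.

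Ndufs1, the largest subunit of complex I and carrier of iron-sulfur clusters, was higher in VTA. It had 171, 148, 164, 154 and 157 CPM in MOR-sired VTA 1 to 5 and 171, 158, 194, 170.4 and 169.8 CPM in SAL-sired VTA 1 to 5, against 120.4 to 153 CPM in MOR-sired NAC and 124 to 156 CPM in SAL-sired NAC, with medians of 134 and 138. The ranges overlapped slightly in MOR-sired libraries, and the log2 fold change was 0.27 (SE 0.06, adjusted p = 0.000464) and 0.21 (SE 0.06, adjusted p = 0.00483).

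Other core subunits were lower in VTA: Ndufs8 at -0.31 and -0.43, Ndufs3 at -0.29 and -0.33, and Ndufs7 at -0.17 and -0.24 in MOR-sired and SAL-sired libraries. The MOR-sired call of Ndufs7 (adjusted p = 0.0393) was lost under 15 alternatives, and its SAL-sired call with library totals (adjusted p = 0.055).

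Among accessory subunits of complex I, Ndufa7 was at -0.38 and -0.46, Ndufb10 at -0.12 and -0.31, and Ndufa1 at -0.28 and -0.25, all called in both sire groups. Ndufa4 and Ndufa4l2, kept with complex I by symbol, were at -0.33 and -0.29 and at -0.56 and -0.68. The MOR-sired call of Ndufa4l2 was lost without the Xist libraries (-0.50, adjusted p = 0.125). Ndufc2 was higher in VTA at 0.16 (adjusted p = 0.0324) and 0.22 (adjusted p = 0.00597), the MOR-sired call being lost under 9 alternatives. Ndufc1 was higher in SAL-sired libraries only (0.36, adjusted p = 0.00173), at 0.02 in MOR-sired libraries (adjusted p = 0.853). The test of that difference is the one of the sire effects above (adjusted p = 0.95). Ndufa5 was at 0.18 in SAL-sired (adjusted p = 0.00764) and 0.08 in MOR-sired libraries (adjusted p = 0.252), Ndufab1 was called in neither, and Cycs was at -0.07 and -0.02, also uncalled.

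The copy Ndufb11b was called higher in VTA in both sire groups, at 1.43 and 1.68, but at levels between 0.333 and 1.41 CPM in VTA and between 0.053 and 0.567 CPM in NAC, and the MOR-sired call was lost without MOR-sired VTA 1 (adjusted p = 0.0628). Atp5mkl1 was at -0.05 and 0.00, beside 0.24 (adjusted p = 0.0866) and 0.34 (adjusted p = 0.0159) for Atp5mk, the gene it is named for.

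Neighbouring pathways are given as counts of genes past the same test. For the sire effect, edgeR called 0 genes of each of 6 lists (complex IV nuclear subunits, assembly factors, the TCA cycle with pyruvate dehydrogenase, biogenesis regulators, nucleotide and phosphate transport, glycolysis) in VTA and in NAC. For the region, 11 of 16 complex IV genes were lower and 4 higher in VTA in MOR-sired libraries, and 8 lower and 3 higher in SAL-sired libraries. Among all tested genes, 30.4% were lower and 27.8% higher in MOR-sired libraries, and 29.7% and 29% in SAL-sired libraries. Cox8a was at -0.52 in both, and Cox6a2, known as the heart and muscle form, was at 1.74 in MOR-sired and 1.64 in SAL-sired libraries. Of 40 assembly factors, 16 were lower in each sire group, and 7 were higher in MOR-sired and 8 in SAL-sired libraries. Ttc19, which serves complex III, had the smallest p of these in both sire groups, at -0.95 and -1.01.

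Of 17 biogenesis regulators, 8 were lower and 2 higher in MOR-sired libraries, and 7 lower and 3 higher in SAL-sired libraries. Over the 17 genes, log2 fold changes ran from -1.06 to 2.495 in MOR-sired and from -1.25 to 2.21 in SAL-sired libraries. Yy1 was at -0.39 and -0.46, and Gabpb1 at -0.51 in each. A link of these regulators to the motifs above was not tested. Of 24 genes of the TCA cycle and pyruvate dehydrogenase, 7 were lower and 5 higher in MOR-sired libraries, and 8 lower and 6 higher in SAL-sired libraries. Suclg2, a subunit of succinyl-CoA ligase, was higher at 0.85 and 0.87, and the kinase Pdk3 lower at -0.97 and -0.89. Glycolysis had 6 lower and 3 higher of 17 in MOR-sired and 7 lower and 4 higher in SAL-sired libraries, and transport 2 lower and 3 higher of 8 in each. The shares of all tested genes given beside the complex IV counts apply to each of these lists. The TCA cycle counts lay near those shares.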

How the data were processed

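Total RNA of bilateral punches was isolated with Qiazol and RNeasy Micro columns and made into strand-directional libraries, per the labels' protocols. Trim Galore, kallisto and DESeq2 were used by the authors, per the submitters' processing notes. Gene-level estimated counts were deposited, which the authors scaled from TPM to each library's total, per the names of the deposited tables. They hold no correction between libraries. The sources used here do not give the genome build, the annotation or the step from transcripts to genes. Totals ran from 23.6 to 43.5 M in VTA and from 21.9 to 41.3 M in NAC (1 M is 1000000 counts). No counting interval was computed, since these estimates are not read numbers. No mitochondrially encoded gene was analysed here. All 37403 identifiers matched a RefSeq symbol (GRCr8), which served only for names, classes and promoters.

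Estimated counts were rounded. edgeR 4.0.16 (R 4.3.3) with filterByExpr, TMM factors and the quasi-likelihood test was fitted on all genes, two-sided, with Benjamini-Hochberg adjustment over all tested genes. Sire effects were fitted within a region, and the region contrasts and the difference of sire effects over 24 libraries with 4 group means. SE is the log2 fold change over the root of F. CPM uses library totals, and folds use TMM. Calls needed an adjusted p under 0.05. The scripts were tested on simulated data. Alternatives were DESeq2 1.42.0, limma 3.58.1 voom with quality weights, other scalings, no filter, a replicate block, and left-out libraries. Leaving out MOR-sired VTA 2 and 4 was chosen after seeing the data. The labels do not say whether replicate numbers pair samples, and the main fits used no pairing. Correlations of same-numbered deviations ran from -0.172 to 0.165, which cannot exclude a shared litter or day. Named genes were 24 fixed key subunits, the 3 of smallest p in complexes I, III and V, the called genes (at most 6 per direction) and the 5 highest and lowest in level. Others were chosen after their values were seen. For 1 gene of the set, values of its own are not reported here, though it is part of the counts and medians. The members and lists were chosen with earlier results of these data known.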

Additional observations from a re-analysis of the deposited data

Results flagged for a closer look

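A library was singled out where its gap to the nearest other library of its group, divided by the group's range, passed Dixon's 95% critical value. This was examined for 47 items in 4 groups, 188 cases in all, and 10 were singled out. The items were the genes named by fixed choice, by p or by call, and the summed CPM of complexes I, II, III and V and of all members. Chance alone gives about 1 in 20.

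In MOR-sired VTA, Uqcrq was 80.3 CPM in replicate 2, against 93.1 to 98.2 CPM in the others. Low copies were seen in replicate 1 alone, Uqcrbl1 at 0.991 CPM and Ndufb3l2 at 0.327 CPM, with 0 in the other 4 libraries. In SAL-sired VTA, replicate 3 was high for Ndufv2 (402 CPM, others 353 to 366 CPM) and for Atp5pb (414 CPM, others 378 to 388 CPM).

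In MOR-sired NAC, replicate 4 was high for Ndufv2 (418 CPM, others 321 to 363 CPM) and for Uqcrc2 (271 CPM, others 242 to 252 CPM). In SAL-sired NAC, replicate 2 was low for Atp5mc1 (381 CPM, others 411 to 430 CPM) and for Sdhc (201 CPM, others 216 to 224 CPM). Ndufb11b was 0.567 CPM in SAL-sired NAC 7, against 0.053 to 0.249 CPM in the others.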

How the results depend on the processing

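In every alternative run, the sire effects in VTA and NAC and their difference called 0 respiratory chain genes. At an unadjusted p under 0.05, NAC listed 5 genes with DESeq2, voom or no filter, and 1 without MOR-sired NAC 2 and 7. VTA listed 2 with DESeq2, 12 with library totals, 3 with no filter, 4 without the 4 Xist libraries and 2 without MOR-sired VTA 2 and 4. The difference listed 4 with voom and 10 with library totals. The VTA median of the 70 genes was -0.12 with library totals and 0.047 without the Xist libraries, and that of the difference -0.12 and 0.078. Library totals moved the median of all genes to -0.09 (VTA), -0.11 (difference) and 0.13 (region, SAL-sired). For the region in SAL-sired libraries they gave 17 higher, 21 lower and a median of -0.031. Without the Xist libraries the MOR-sired region contrast gave 9 higher and 15 lower. The cause was not tested. With a replicate block, the numbers of unadjusted listings were 1 in NAC, 2 in VTA and 2 for the difference. The block changed no sire call and gave 29 lower and 5 higher for the region in MOR-sired and 33 and 8 in SAL-sired libraries.

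Leaving out 1 library at a time, listings ran from 1 (without MOR-sired NAC 5) to 5 (without MOR-sired NAC 1) in NAC, from 0 (without MOR-sired VTA 3) to 2 (without MOR-sired VTA 1) in VTA and from 2 to 4 (without MOR-sired VTA 1) for the difference. Median log2 fold changes ran from -0.04 to 0.01 in NAC, from -0.05 to 0.01 in VTA and from -0.02 to 0.04 for the difference. The MOR-sired region contrast gave 3 (without MOR-sired VTA 1) to 7 higher and 24 (without MOR-sired VTA 5) to 33 lower, with medians from -0.15 to -0.09 and 36 to 44 at an unadjusted p under 0.05. The SAL-sired contrast gave 7 to 10 higher and 31 to 35 lower, with medians from -0.14 to -0.10 and 42 to 45. Of the named genes, none reversed a called direction.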

Other observations

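Ndufa10l1, a copy-named relative of Ndufa10, a subunit of complex I, took widely spaced levels in NAC. It had 2.82, 39.7, 19.1, 18.7, 35.7, 2.73 and 22.8 CPM in MOR-sired NAC 1 to 7, and 42.8, 22.9, 21.5, 18.5, 41.0, 20.1 and 42.4 CPM in SAL-sired NAC 1 to 7. Of the 14 NAC values, none lay between 2.82 and 18.5 CPM or between 22.9 and 35.7 CPM. In VTA it had 28.1, 25.9, 39.5, 38.6 and 39.0 CPM in MOR-sired VTA 1 to 5, and 17.2, 29.2, 38.5, 40.4 and 36.9 CPM in SAL-sired VTA 1 to 5. Ndufa10 itself had 137 ± 11.0 CPM in VTA and 136 ± 5.29 CPM in NAC. The sire difference of Ndufa10l1 in NAC was -0.58 on the log2 scale (SE 0.51, adjusted p = 0.973, edgeR).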
